A study of Mus musculus with 6 samples.

Results

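Sub-clusters 4 and 12 are groups of cells that the authors' clustering separated among early postnatal astroglia of the mouse striatum. Their members were taken as the cells numbered 4 or 12 in the deposited sub-cluster annotation. They comprised 1019 of 9992 annotated astroglial cells, and of 14373 annotated cells of all types, with 735 cells in sub-cluster 4 and 284 in sub-cluster 12. Of these, 992 lay in a single library, P3 replicate 3.

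The study compared astrocytes at postnatal day 3 (P3) and 3 months (3m), with 3 droplet libraries (10x Chromium, 3′ chemistry) at each age. All animals were wild type male C57BL/6 mice. Each library was made from the pooled striata of several animals, after debris and red blood cell removal and magnetic enrichment for ACSA2, a surface epitope of the Na+/K+ ATPase subunit encoded by Atp1b2. The libraries held 1308 to 5582 barcodes and 5471573 to 37795021 unique molecular identifiers (UMIs, each a counted transcript molecule), and P3 replicate 3 held the most barcodes.

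Astroglia of the early postnatal forebrain are immature and partly still dividing. They express Sox9, a transcription factor that specifies and marks the glial lineage, and Fabp7, a fatty acid binding protein of radial glia and young astrocytes. In droplet sequencing, all RNA in a droplet receives a common barcode, whether it comes from an intact cell, a damaged cell, a cell fragment or the fluid around it. The UMI count of a barcode is therefore read beside any difference in gene content.

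The members were present in almost no library other than P3 replicate 3. They made up 26.2% of its astroglial cells (992 of 3786, 95% Clopper-Pearson interval 24.8 to 27.6%), against 0.605% in P3 replicate 1 (12 cells) and 0.451% in P3 replicate 2 (14 cells). The 3m libraries held 0 of 213, 0 of 546 and 1 of 359 astroglial cells. The zeros allow shares of up to 1.41% and 0.549%, and intervals and limits cover counting error only. The mean share was 9.09 ± 14.8% at P3 and 0.0929 ± 0.161% at 3m (SD, n = 3 libraries each). The difference of 8.99 percentage points had p = 0.1 in a two-sided exact permutation test, the smallest p that 3 against 3 libraries can give. Without P3 replicate 3 the difference was 0.435 percentage points. The age comparison of the share thus rested on 1 library.

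In the study's clustering of all cell types, 967 of the 1019 members belonged to a single cluster of early postnatal astrocytes, AST_P3_4, and formed 93.4% of it. A further 22 members, all of sub-cluster 4, were in the glial progenitor cluster GPC_9. Only 4 members had a barcode that also occurred in another library, and no barcode lay 1 base from another of the same library.

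The members were shallow cells. In P3 replicate 3 their median was 1015 UMIs and 709 genes (interquartile range 810.5 to 1431.5 UMIs), against 6874 UMIs and 2697.5 genes in the other 2794 astroglial cells. Sub-cluster 4 had a median of 1040 UMIs and sub-cluster 12 of 952 UMIs. The ratio of the medians, members over others, was 0.148, and 87.8% of members but 2.72% of the others had fewer than 2000 UMIs. Members in turn made up 92.0% of the 947 astroglial cells of the library below 2000 UMIs, and 10 members exceeded 8000 UMIs. All 11 other sub-clusters found in the library had medians from 4264 to 14756 UMIs. The median share of mitochondrially encoded UMIs was not raised, at 1.09% in sub-cluster 4, 1.16% in sub-cluster 12 and 1.31% in the others. Cells are not replicates and only 1 library held the members, so these medians carry no test.

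The library held other shallow clusters too. Clusters END_12 (346 cells) and END_13 (282 cells), named endothelial by the authors, had medians of 1252.5 and 1364 UMIs, against 26229 UMIs in the deep endothelial cluster END_7 (260 cells). P3 replicates 1 and 2 held 1 and 2 cells of END_12, and 42 and 15 cells of END_13. Barcodes with at most 500 genes, which the study's filter removed before clustering, numbered 531 in P3 replicate 3 (9.51% of barcodes), 61 in replicate 1 (2.34%) and 114 in replicate 2 (3.02%).

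**Figure D1:**
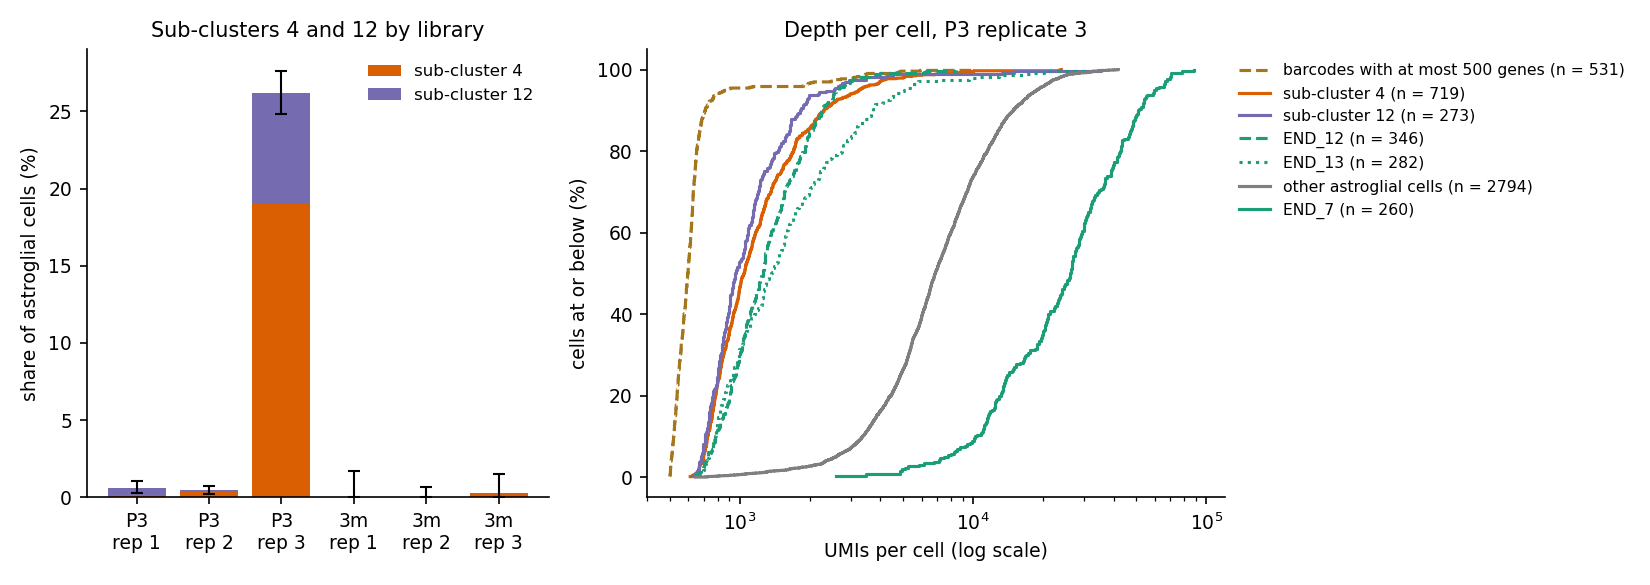
Left, share of astroglial cells in sub-cluster 4 (orange) and sub-cluster 12 (purple) in each library, stacked in percent, with the 95% Clopper-Pearson interval of their sum. Right, cumulative share of cells by UMIs per cell (log scale) for groups of P3 replicate 3. The sub-cluster curves lie between the removed low-gene barcodes and the other astroglial cells, beside the shallow clusters END_12 and END_13.

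Both sub-clusters carried astroglial RNA. Levels are given as CPM, the UMIs of a gene pooled over a group of cells and scaled to a common total for every group, so a difference in total RNA per cell does not enter them. The 12 astroglial markers summed to 26663 CPM in sub-cluster 4, 23031 CPM in sub-cluster 12 and 30701 CPM in the other astroglial cells. Fabp7 stood at 14609 CPM in sub-cluster 4, 12193 CPM in sub-cluster 12 and 18253 CPM in the others. Sox9 stood at 1799, 1232 and 848 CPM in the same order. At least 1 Fabp7 UMI was found in 716 of the 719 sub-cluster 4 cells and in all 273 of sub-cluster 12. For comparison, 78.8% of END_7 cells, which should lack the transcript, also had one, at a median of 26229 UMIs. Fabp7 was at 207 CPM in END_7, far under the level in either sub-cluster.

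The listed astroglial markers did not head either profile against the rest of the library. The 10 genes with the largest ratio to the rest of the annotated cells were led by Msi1, Clasp2 and Fn3krp in sub-cluster 4 and by Ccdc152, Ulk4 and Abhd2 in sub-cluster 12, and none was among the 12 astroglial markers. Nfia and Notch2, described below, were among the 10 of sub-cluster 4. Most annotated cells outside the members were astroglial too (2794 of 4047), so markers shared by astroglia could hardly lead. Against the annotated cells outside the members, 2.29% of 3627 genes were at least 2-fold higher in the members and 2.78% were lower. The median depth of the members was 0.203 of the library median. The sub-clusters are called by their numbers and given no cell type name.

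Pooled gene profiles of the members and the other astroglial cells of P3 replicate 3 were close. Among 3555 genes with at least 50 CPM in either group, 107 were at least 2-fold higher in the members (3.01% of genes tested, on a log2 ratio with 10 CPM added to both) and 0 were at least 2-fold lower (0%). The log2 ratio was within 0.5 of 0 for 90.7% of these genes, and its median was −0.02. The clusters were built from these same genes, so the counts describe them and are no test.

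The 2 sub-clusters differed in how far they departed from the others. In sub-cluster 4, 80 of 3540 genes (2.26%) were at least 2-fold higher and 0 lower. In sub-cluster 12, 254 of 3820 genes (6.65%) were higher and 16 (0.419%) lower. They shared 56 of the higher genes, which is 70% of those of sub-cluster 4 and 22.0% of those of sub-cluster 12. The genes nearest the threshold in sub-cluster 4 were Prrc2c, Myef2 and Alkbh5 inside, each at a log2 ratio of 1.01, and Lrrc4b (1.00), Igfbp5 (0.99) and Maml2 (0.99) outside.

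**Figure D2:**
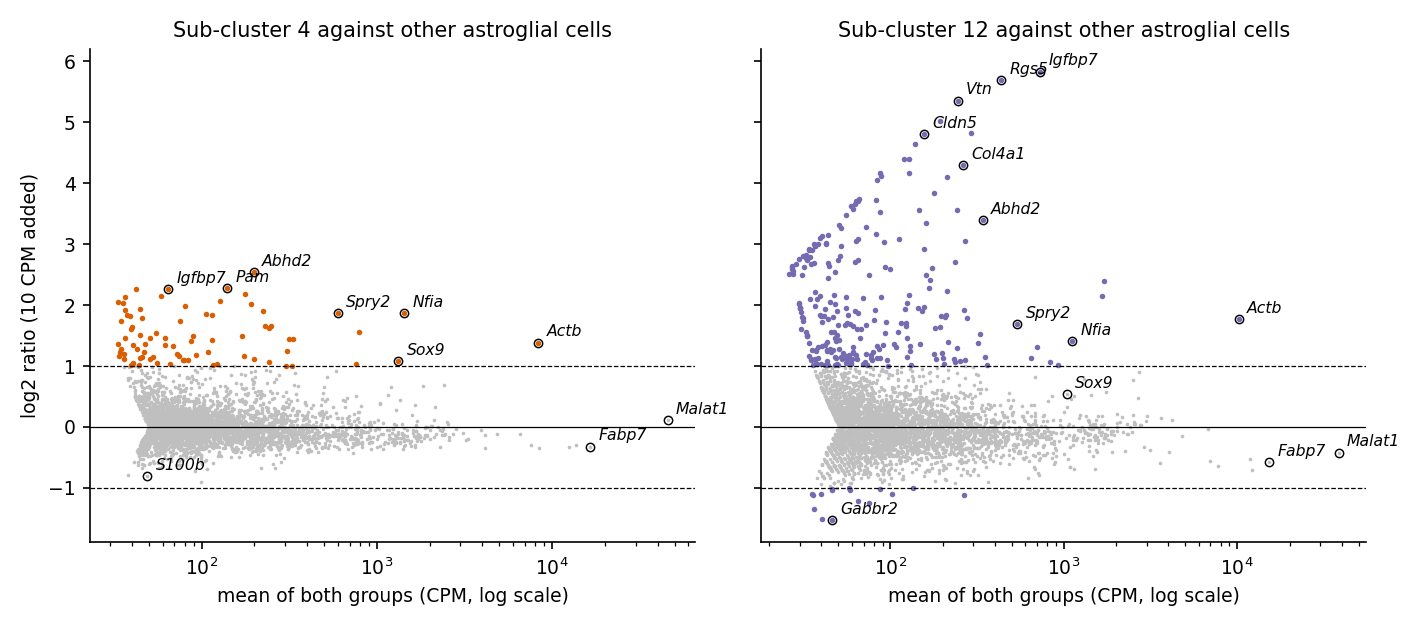
Log2 ratio of pooled CPM (10 CPM added) against the mean CPM of both groups (log scale), for sub-cluster 4 (left) and sub-cluster 12 (right) over the other astroglial cells of P3 replicate 3. Coloured points are genes at least 2-fold apart, 80 higher on the left, 254 higher and 16 lower on the right, and vascular genes such as Igfbp7 and Rgs5 top the right panel.

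The genes that were higher in sub-cluster 4 were of several kinds. Abhd2, a serine hydrolase with lipase activity, was at 345 CPM in sub-cluster 4 (95% Poisson interval 310 to 383), 629 CPM in sub-cluster 12 and 50.8 CPM in the other cells of the library. The other astroglial cells of P3 replicates 1 and 2 were at 31.6 and 52.2 CPM, below both sub-clusters. Pam, which amidates peptide hormones, was at 238, 304 and 41.2 CPM in sub-cluster 4, sub-cluster 12 and the others. Clasp2, which binds the plus ends of microtubules, was at 297, 256 and 58.0 CPM. These are ratios of 6.79, 5.78 and 5.12 for sub-cluster 4 over the others.

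Other single genes, picked by their ratio or known role and not as a group, were as follows. Msi1, an RNA-binding protein of neural progenitors, was at 312 CPM in sub-cluster 4, 191 CPM in sub-cluster 12 and 69.9 CPM in the others. Nfia, a transcription factor that drives gliogenesis, was at 2244, 1630 and 609 CPM. Spry2, a feedback inhibitor of receptor tyrosine kinase signalling, was at 944, 826 and 250 CPM. Notch2, a receptor for cell-bound ligands, was at 386, 280 and 115 CPM, and Insig1, which retains the sterol-sensing SREBP complex in the endoplasmic reticulum, at 360, 296 and 88.6 CPM. Sox9 passed 2-fold in sub-cluster 4 (log2 ratio 1.08) and not in sub-cluster 12 (0.53), and was the only one of 12 astroglial markers to pass, with a median of −0.26 over the list.

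Genes of RNA processing and translation made up another group, which was picked out after the values had been seen. Hnrnpa1, a splicing regulator, was at 1190 CPM in sub-cluster 4, 1001 CPM in sub-cluster 12 and 396 CPM in the others. Hnrnpl was at 463, 492 and 165 CPM and Hnrnpul1 at 255, 277 and 83.7 CPM. Eif4a1, an RNA helicase of translation initiation, was at 490, 468 and 174 CPM. Of the 20 hnRNP genes tested, 3 were at least 2-fold higher in sub-cluster 4, and the median log2 ratio of the 20 was 0.25. Most of the family thus stayed under 2-fold. Of 16 Rbm genes tested 2 passed, Rbm15 and Rbm45, with a median of 0.08. Over all genes tested in sub-cluster 4, 2.26% were at least 2-fold higher and the median was −0.01.

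A few more genes were picked singly after their values had been seen. Wtap, a subunit of the complex that methylates adenosine in RNA, was at 172 CPM in sub-cluster 4, 159 CPM in sub-cluster 12 and 57.8 CPM in the others. Alkbh5, which removes that mark, was at 158, 175 and 73.2 CPM, just past 2-fold. Kdm6b, a histone demethylase, was at 137, 143 and 42.3 CPM. Cdkn1b, an inhibitor of the cell cycle, was at 435, 363 and 177 CPM.

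Actb, the cytoplasmic beta actin, was the most abundant gene of the set, at 12023 CPM in sub-cluster 4, 15749 CPM in sub-cluster 12 and 4607 CPM in the others. Its close relative Actg1 was at 2263, 2666 and 2337 CPM, so the difference did not extend to both cytoplasmic actins. Of the 10 cytoskeleton genes, Actb alone passed in sub-cluster 4, and Tmsb10 joined it in sub-cluster 12 (2701 against 603 CPM).

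No gene was at least 2-fold lower in sub-cluster 4. The lowest log2 ratios were those of Hist1h3e, a replication-dependent histone (65.9 against 132 CPM, log2 ratio −0.91, a direction that turned for the members when the progenitor sub-clusters were left out of the others), and S100b, a calcium-binding protein that rises as astrocytes mature (33.0 against 65.1 CPM, −0.81). Aqp4, the water channel of astrocyte end-feet, was at 201 CPM in sub-cluster 4, 159 CPM in sub-cluster 12 and 310 CPM in the others. In sub-cluster 12, Gabbr2, a GABA-B receptor subunit, was the lowest named gene at 18.8 against 73.0 CPM.

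Lists of genes for other programmes stayed near the other astroglial cells. Of the 9 mature astrocyte genes listed by the study, 7 were tested in sub-cluster 4 and 0 passed in either direction (median log2 ratio −0.33), with Apoe at 7455 against 9466 CPM and Aldoc at 725 against 911 CPM. Of the 10 immature genes 1 passed, Nfia, and the median was 0.09. Both lists were chosen by the study on these samples, so their direction is not independent evidence. Heat shock genes (3 tested, median 0.04), immediate early genes (7 tested, 0.21), integrated stress response genes (2 tested, −0.27), p53 and apoptosis genes (1 tested, −0.19) and hypoxia and glycolysis genes (5 tested, 0.03) held none past 2-fold in sub-cluster 4. The mitochondrially encoded genes (13 tested, −0.09), the cytosolic ribosomal proteins (57 tested, −0.14) and the nuclear-encoded respiratory chain (78 tested, −0.15) also held none. Of 7 cholesterol synthesis genes 1 passed, Insig1. Reactive astrocyte genes (2 tested, 0.09) and ependymal genes (3 tested, 0.41) held none. The nuclear-retained RNA Malat1 was at 47382 CPM in sub-cluster 4, 32833 CPM in sub-cluster 12 and 44002 CPM in the others.

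Regional genes were measured as sums. The 6 telencephalic genes summed to 1170 CPM in sub-cluster 4, 963 CPM in sub-cluster 12 and 1196 CPM in the others, and the 16 non-telencephalic genes to 490, 481 and 455 CPM. Of the 6 telencephalic and 2 non-telencephalic genes tested, 0 passed 2-fold in sub-cluster 4, and 9 of the 16 non-telencephalic genes were at 0 UMIs there. The paper grouped both sub-clusters, with several others, beside non-telencephalic reference astrocytes. It proposed that such cells may be contamination from neighbouring regions. The other astroglial cells here pool telencephalic and non-telencephalic sub-clusters, so these sums do not test that placement.

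Sub-cluster 12 was set apart by vascular RNA. The 10 endothelial markers summed to 1251 CPM in sub-cluster 12, 51.4 CPM in sub-cluster 4 and 31.2 CPM in the other astroglial cells, and the 8 mural markers (pericytes and smooth muscle) to 2558, 252 and 102 CPM. In sub-cluster 4 the endothelial markers Cdh5 and Tie1 were at 0.

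Cldn5, a tight junction protein of brain endothelium, was at 312 CPM in sub-cluster 12 (95% Poisson interval 258 to 374) and at 2.91 CPM in sub-cluster 4, from 3 UMIs (upper limit 8.50 CPM). Rgs5, a signalling regulator of pericytes, was at 863 CPM in sub-cluster 12, 60.1 CPM in sub-cluster 4 and 6.99 CPM in the others. Igfbp7, a secreted protein of vessels, was at 1447, 113 and 15.7 CPM, and Vtn, the pericyte-expressed vitronectin, at 487, 28.1 and 2.16 CPM. The 5 largest differences of sub-cluster 12 over sub-cluster 4 were in Cldn5, Pglyrp1, Ctla2a, Cxcl12 and Vtn. In all, 170 of 3870 genes (4.39%) were at least 2-fold higher in sub-cluster 12 than in sub-cluster 4 and 11 (0.284%) were lower.

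The excess of sub-cluster 12 was mostly of this kind. Of the 198 genes that were higher in sub-cluster 12 but not in sub-cluster 4, 148 (74.7%) had a level in END_7 or in the pericyte cluster PER_6 over 5 times that of the other astroglial cells, against 5.18% of all genes tested and 8 of the 80 sub-cluster 4 genes. Those 8 included Igfbp7, Rgs5, Acta2 and Abhd2. The 198 and the 80 genes were both chosen for a level above the other astroglial cells, which is also the divisor here. That choice favoured larger shares than among all genes tested, so these shares are a description. Astroglial and vascular transcripts were found under the same barcodes. Of 273 sub-cluster 12 cells, 93.4% had an endothelial or mural UMI and 31.5% had both, against 27.3% and 2.36% of sub-cluster 4 cells.

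Sub-cluster 12 also stood apart at equal depth. The authors' clusters rest on these same genes, so this is a description and no test. When each cell was thinned at random to 500 UMIs, 39.9% of sub-cluster 12 cells (95% interval 34.1 to 46.0%) retained an endothelial UMI. The share was 2.64% in sub-cluster 4 and 1.47% in the other astroglial cells. Microglial cells (cluster MIC_16), which should lack these transcripts, were at 2.17% (1 of 46 cells, 95% interval 0.055 to 11.5%). The unthinned shares were 56.4, 6.54, 21.3 and 17.4%, at median depths of 952, 1040, 6874 and 5356 UMIs. No cell fell under 500 UMIs, so none was left out.

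**Figure D3:**
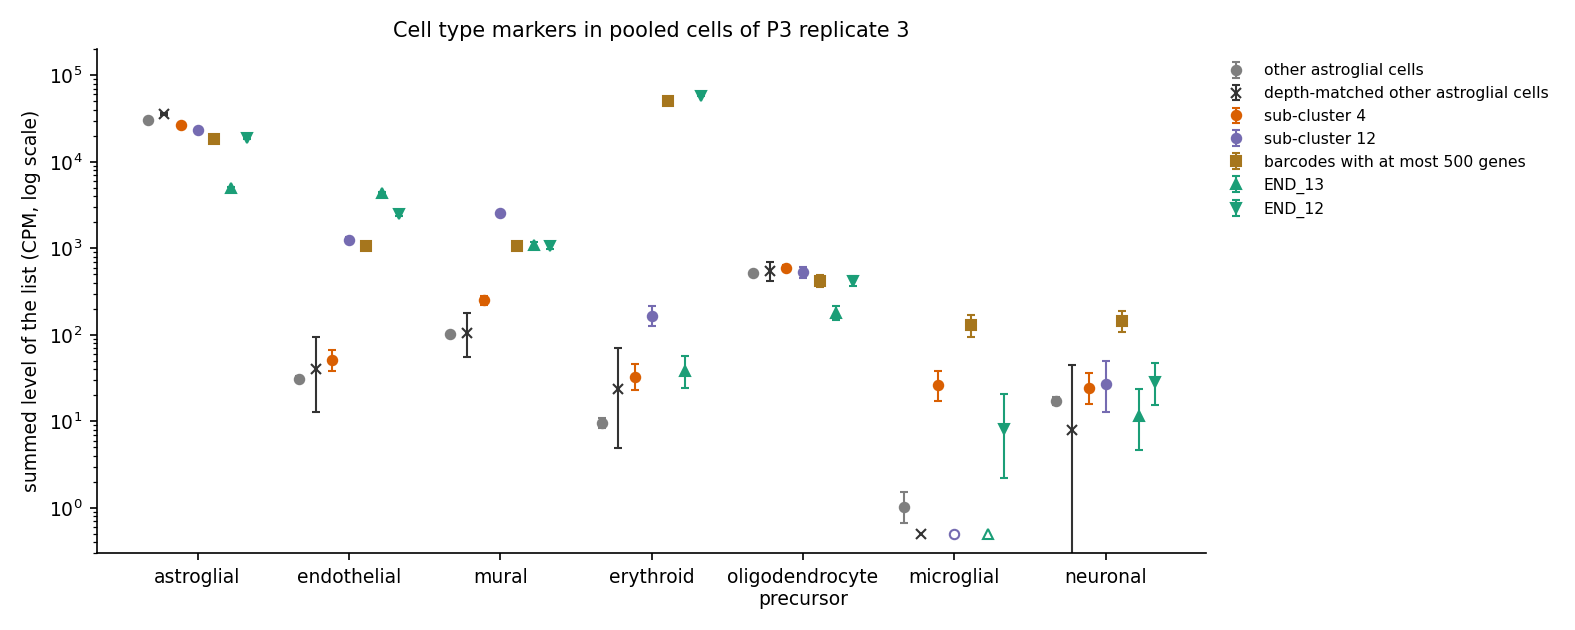
Summed CPM (log scale) of 7 cell type marker lists in pooled cells of P3 replicate 3, with 95% Poisson intervals. Sub-clusters 4 and 12 have nearly the astroglial level of the other astroglial cells, sub-cluster 12 is over 20 times higher in endothelial markers, and open symbols and a lone cross at the bottom of the microglial column mark lists at 0 UMIs.

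The lists for other cell types differed in level. Oligodendrocyte precursor markers summed to 598 CPM in sub-cluster 4, 530 CPM in sub-cluster 12 and 521 CPM in the other astroglial cells, with Olig1, also a gene of immature astroglia, at 470, 382 and 416 CPM. Ependymal markers summed to 245, 272 and 194 CPM. The 8 microglial markers summed to 26.2 CPM in sub-cluster 4 (27 UMIs), 0 UMIs in sub-cluster 12 with all 8 genes at 0, and 1.04 CPM in the others. The 4 haemoglobin genes summed to 33.0 CPM in sub-cluster 4, 167 CPM in sub-cluster 12 and 9.62 CPM in the others. They reached 50352 CPM in the low-gene barcodes of the library and 57792 CPM in END_12, but 38.2 CPM in END_13. The 8 neuronal markers summed to 24.2, 26.9 and 17.1 CPM, and the 7 oligodendrocyte markers to 10.7, 13.4 and 5.48 CPM. 

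Other astroglial cells in the depth range of the members were compared with them. The 86 other astroglial cells with 721.2 to 2170 UMIs, the 10th to 90th percentile of the members, held 125001 UMIs in all, so 3 UMIs were 24.0 CPM and single genes were uncertain. Only the range was matched, and their median of 1461.5 UMIs was above the 1015 UMIs of the members. Against them, 349 of 3961 genes (8.81%) were at least 2-fold higher in the members and 205 (5.18%) lower. The depth-matched cells themselves differed from all other astroglial cells by 149 higher genes of 3792 (3.93%) and 171 lower (4.51%). Their median mitochondrial share was 1.84% and their astroglial markers summed to 35360 CPM, both above the members.

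Some genes chosen in sub-cluster 4 were well below its level in the depth-matched cells, which the choice itself made likely. Nfia was at 720 CPM there, Msi1 at 96.0 CPM, Hnrnpa1 at 200 CPM and Actb at 3864 CPM. Sub-cluster 4 was at 2244, 312, 1190 and 12023 CPM. Other genes of the set were not far below. Tacc1 was at 216 CPM in the depth-matched cells and 246 CPM in sub-cluster 4, and Abcc5 at 64.0 and 56.2 CPM. Of the 35 sub-cluster 4 genes that could be tested, 3 were at least 2-fold higher in the depth-matched cells than in all other astroglial cells (8.57%, against 3.93% of all genes), and their median log2 ratio was 0.39, against 0.01 for all genes. Agt, the hormone precursor angiotensinogen, was at 240 CPM in the depth-matched cells, 20.4 CPM in sub-cluster 4 and 18.8 CPM in sub-cluster 12.

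Whether depth alone changes these genes was also asked in cells that the rule did not use. In each P3 library, other astroglial cells outside the progenitor sub-clusters were summed as shallow (at most 2170 UMIs, 41, 126 and 84 cells in replicates 1 to 3) or deep, and compared within libraries with edgeR's quasi-likelihood test. Of 12330 genes, 5 were higher (0.0406%) and 13 lower (0.105%) in the shallow sums, calling genes past 2-fold whose adjusted p was 0.05 or less. Of the 80 sub-cluster 4 genes 78 were tested and 0 were called, and their median log2 fold change was −0.08, against −0.15 for all genes. Nfia changed by −0.34 ± 0.22 (SE, adjusted p = 0.944 in edgeR) and Actb by −0.29 ± 0.26 (adjusted p = 0.944).

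The called genes were others. Lars2, a mitochondrial leucyl-tRNA synthetase, was at 120, 417 and 298 CPM in the shallow sums of replicates 1 to 3. The deep sums were at 32.7, 155 and 91.1 CPM, lower within each library, though the ranges overlapped. The log2 fold change of Lars2 was 1.49 ± 0.23 (adjusted p = 3.8e-07 in edgeR). Socs3, an inhibitor of cytokine signalling, was lower at 103, 43.3 and 99.3 CPM against 165, 214 and 261 CPM (log2 fold change −1.71 ± 0.30, adjusted p = 2.9e-05 in edgeR). With so few shallow cells the test could miss large changes as well as small ones, so the 0 calls do not show that these genes were unchanged. In pooled CPM, 2 of 28 sub-cluster 4 genes were at least 2-fold higher in the shallow cells of replicate 1 (11% of all genes), 0 of 32 in replicate 2 (0.9%) and 3 of 36 in replicate 3 (3.6%).

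The genes of sub-cluster 4 were also compared between the clusters that the authors named endothelial. Of the 80 sub-cluster 4 genes, 54 could be tested in END_13 against END_7 and 36 of them (66.7%) were at least 2-fold higher in END_13, against 5.07% of all genes tested, while 3 were lower (2.71% of all genes). In END_12 against END_7 the count was 50 of 67 (74.6%), against 14.4% of all genes, while 3 were lower (8.93% of all genes). Of the genes higher in sub-cluster 12 only, 7 of 176 were higher in END_13. The rise in END_13 was not particular to the sub-cluster 4 genes. Of the 10 astroglial markers tested there, 8 were at least 2-fold higher than in END_7. Their median log2 ratio was 2.40, against 1.28 for the 54 sub-cluster 4 genes. The endothelial cells were not used to make the sub-clusters, but they came from the same library.

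Actb was at 27312 CPM in END_13 and 11945 CPM in END_7, and Hnrnpa1 at 981 and 247 CPM. Abhd2 was at 1192 and 268 CPM. All 3 genes were also higher in END_13 than in the other astroglial cells. Astroglial RNA differed between these clusters too, with the 12 astroglial markers at 18787 CPM in END_12, 4922 CPM in END_13 and 650 CPM in END_7. In END_12 they exceeded the endothelial markers (2523 CPM), and all 12 were at least 2-fold higher than in END_7, so the values of END_12 go against its name. Of the 36 shared genes, 31 (86.1%) were above the other astroglial cells in END_13, against 29.4% of the 170 genes higher in END_13. Sox9, at 279 CPM in END_13 against 848 CPM in the other astroglial cells, was among the 5 that were not. The shared genes had been chosen for a level above these same other astroglial cells. That choice favoured a larger share than among the 170 genes, so these shares are a description. The part of astroglial RNA in the level of the shared genes in END_13 was not tested.

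**Figure D4:**
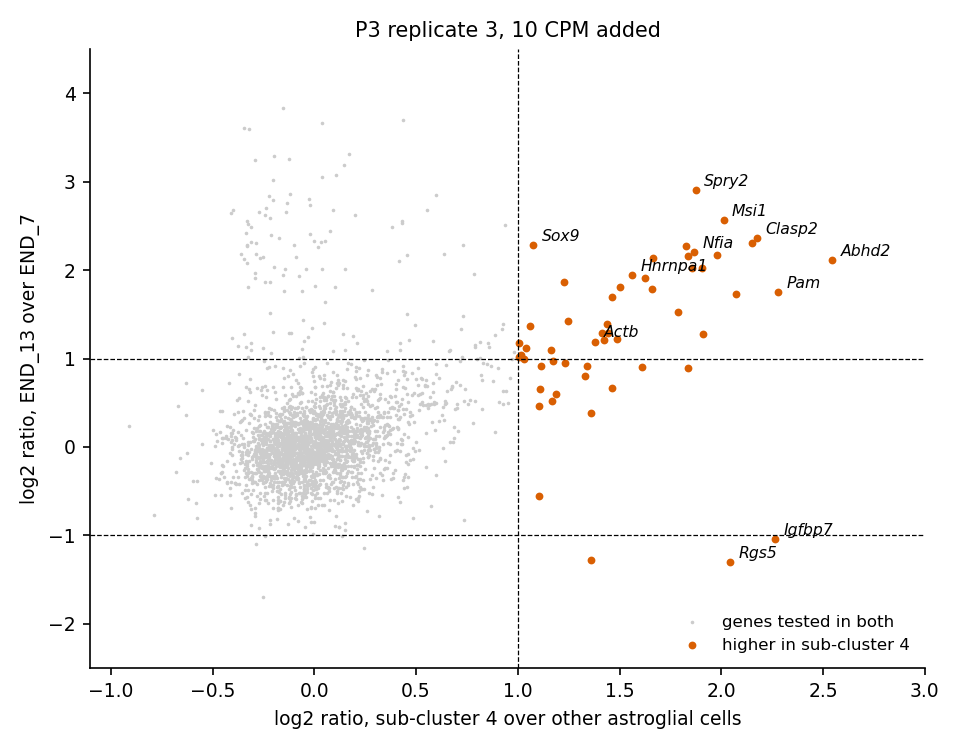
Log2 ratio of END_13 over END_7 against that of sub-cluster 4 over the other astroglial cells, both with 10 CPM added, for the 2561 genes tested in both (1 point per gene), with dashed lines at 2-fold. Most sub-cluster 4 genes (orange) lie in the upper right, while the vascular genes Igfbp7 and Rgs5 lie at the bottom.

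The summed level of the set was then followed across groups of cells. For this sum Actb, which outweighs the others, and the 8 genes of vascular level were left out, which leaves 71 genes. Since the set was chosen in sub-cluster 4, its level in the members, 16860 CPM, is given as a reference. It was 6002 CPM in the other astroglial cells of the library, and 4735 and 5090 CPM in those of P3 replicates 1 and 2. The annotated cells outside the astroglial clusters had 4381 CPM in P3 replicate 3.

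The barcodes that the filter had removed were measured too. Of the sub-cluster 4 genes, 64 could be tested between the low-gene barcodes of P3 replicate 3 and those of each other P3 library. In P3 replicate 3, 62 were at least 2-fold higher than in replicate 1 (58.4% of all genes) and 60 higher than in replicate 2 (43.9% of all genes). Msi1 was at 234 CPM in these barcodes of P3 replicate 3, against 11.0 and 14.3 CPM in replicates 1 and 2.

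The few members in other libraries were lower than those of P3 replicate 3. The 12 members in P3 replicate 1 had 7969 CPM (95% Poisson interval 6810 to 9270) and the 14 in P3 replicate 2 had 6100 CPM (5625 to 6604). Their median depths were 1092 and 2009.5 UMIs. These are 168 and 610 UMIs of the set, from few cells. In replicate 2, a pair of deep cells with 26257 and 29511 UMIs held most of the 100005 UMIs behind the pooled value.

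Within P3 replicate 3 the set fell further with depth in the members than in the others. Its genes were chosen in the pooled UMIs of sub-cluster 4, most of which came from shallow cells. A high level in the shallow classes was therefore partly built in, and the fall is a description. In sub-cluster 4 it was 19864 CPM in 336 cells of up to 1000 UMIs, 19492 CPM in 280 cells of over 1000 and up to 2000, 17171 CPM in 83 cells of up to 4000 and 12603 CPM in 13 cells of up to 8000 UMIs. Above 8000 UMIs, 5 cells had 7570 CPM and 2 cells 6444 CPM. The other astroglial cells went from 7147 CPM at over 1000 and up to 2000 UMIs to 5780 CPM between 8000 and 16000 UMIs, and no depth class lay outside these values. Sub-cluster 12 followed sub-cluster 4, from 17838 CPM in its shallowest class to 4304 CPM in its single cell above 16000 UMIs. That cell differed in kind, with astroglial markers at 8042 CPM against 22439 CPM in the shallowest class. Its endothelial markers were at 3568 CPM against 1459 CPM.

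The excess of the summed set, which the choice of its genes in sub-cluster 4 had built in, was spread over the cells. After thinning to 500 UMIs, 97.9% of sub-cluster 4 cells and 98.2% of sub-cluster 12 cells held at least 3 UMIs of the set, against 56.9% of the other astroglial cells and 58.1% of the depth-matched cells. The mean was 9.63 UMIs in sub-cluster 4 with a variance over mean of 1.27, where counting alone would give 1, and 8.66 UMIs in sub-cluster 12. No small group of cells carried the sum, which does not speak for single genes.

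Genes of cell division behaved differently from the set. The 8 cell cycle genes summed to 1216 CPM in sub-cluster 4, 925 CPM in sub-cluster 12, 850 CPM in the other astroglial cells and 152 CPM in the depth-matched cells. None passed 2-fold in sub-cluster 4, where Top2a, a topoisomerase of dividing cells, was at 270 CPM against 186 CPM, and Ube2c, which acts in mitotic exit, at 337 against 192 CPM. In cells thinned to 500 UMIs, 35.5% of sub-cluster 4 cells and 37.0% of sub-cluster 12 cells had a cell cycle UMI, against 13.3% of the other cells, 9.30% of the depth-matched cells and 15.2% of microglial cells. Unthinned, the shares were 52.0, 61.2, 48.6, 15.1 and 58.7%.

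The relation to depth differed in the other cells. In the other astroglial cells the cell cycle list rose from 114 CPM between 2000 and 4000 UMIs to 2253 CPM above 16000 UMIs. In sub-cluster 4 it was already at 1101 CPM below 1000 UMIs and 1759 CPM between 2000 and 4000 UMIs. The few cells with as few UMIs as the members but outside the sub-clusters thus had less of the list than sub-cluster 4. Pooled, the members were at 1139 CPM, above the 850 CPM of the other astroglial cells of the library.

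**Figure D5:**
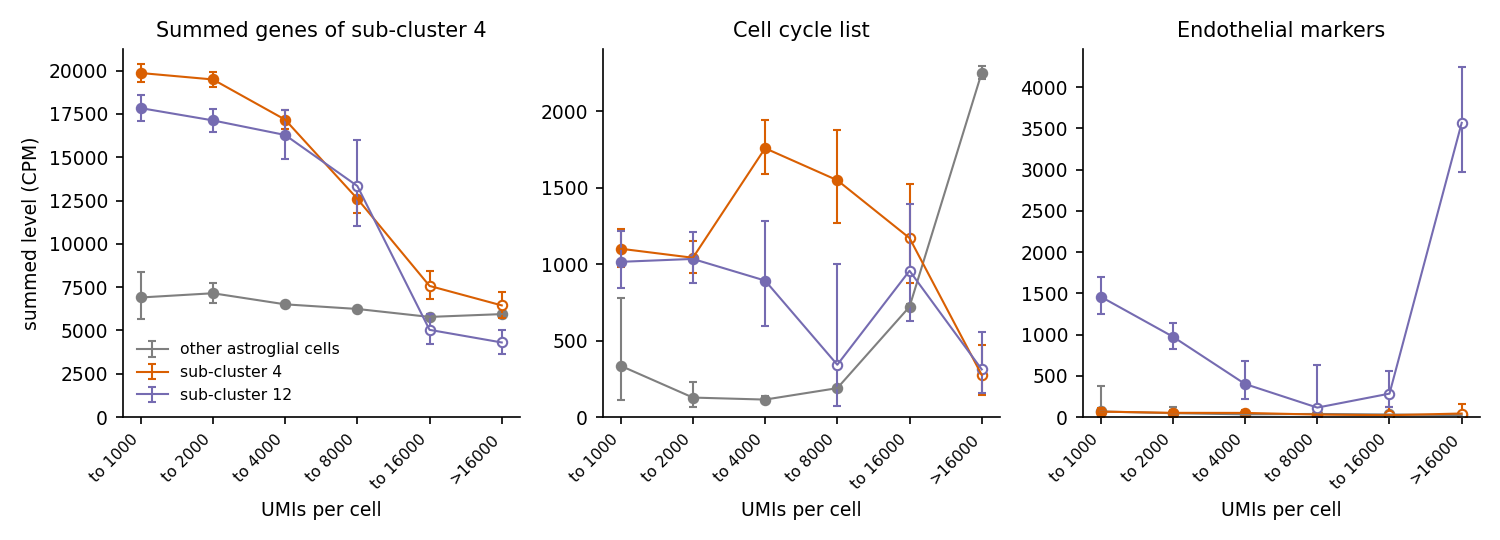
Summed CPM of the 71 sub-cluster 4 genes, the cell cycle list and the endothelial markers by UMIs per cell (classes by their upper limit), for sub-clusters 4 and 12 and the other astroglial cells of P3 replicate 3, with 95% Poisson intervals. Open points hold fewer than 10 cells. The 71-gene sum, of genes chosen in sub-cluster 4, falls with depth in both sub-clusters and stays between 5780 and 7147 CPM in the others.

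The genes of the set had a longer median transcript than the other genes tested, a difference that was not tested. All 80 genes of the set matched the GENCODE annotation of GRCm38, and 79 were protein-coding. The median of the longest annotated transcript was 3725 bases for the set and 2845 bases for the other genes tested, and the median 3′ untranslated region 1368 and 976 bases. The quartiles of transcript length overlapped, at 2546 to 5624 bases for the set and 1744 to 4402.5 bases for the others. The set lay on 19 chromosomes with at most 8 genes on any. Abhd2 lies at chr7:79273199-79365508 (plus strand), Nfia at chr4:97772734-98118874 (plus) and Msi1 at chr5:115429599-115455698 (plus). Transcripts with a retained intron were annotated for 52.5% of the set and 63.4% of the others.

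Pseudotime, the authors' ordering of cells that starts at a proliferating progenitor sub-cluster, was given for 507 of 719 sub-cluster 4 cells (70.5%) and for 13 of 273 sub-cluster 12 cells (4.76%) of P3 replicate 3. The median score was 150.6 in sub-cluster 4 and 153.0 in sub-cluster 12. It was 155.2 in the 1510 other astroglial cells with a score.

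Across genes, the pooled log profile of sub-cluster 4 lay closest to the other astroglial cells (Pearson's r 0.974 over 3237 genes). That of sub-cluster 12 lay closest to the whole library (0.954), followed by the low-gene barcodes (0.925), and was at 0.865 with the other astroglial cells. All of these profiles share a library, and genes are not independent replicates.

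The members changed the comparison of the ages for few genes. They held 5.71% of the astroglial UMIs of P3 replicate 3. Summed per library and fitted with edgeR, 2132 of 13517 genes (15.8%) were higher and 2197 (16.3%) lower at 3m without the members, and 2140 and 2204 of 13530 genes (15.8% and 16.3%) with them, with 4311 calls in common. The distance of P3 replicate 3 from the other P3 libraries, the median absolute log2 difference over genes, was 0.147 with the members and 0.146 without.

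Since the genes of sub-cluster 4 were chosen for a high level in members, adding the members had to raise them at P3, and their shift is a description. Their log2 fold change, 3m over P3, moved by a median of −0.06 when the members were included, against 0.00 for all genes, and 19 of the 80 moved by over 0.1, against 198 of 13508 genes in all. Abhd2 was at 31.6, 52.2 and 50.8 CPM at P3 and 20.7, 33.6 and 7.48 CPM at 3m without the members, so 1 3m library overlapped the P3 range. Its log2 fold change went from −0.90 ± 0.36 (SE, adjusted p = 0.0503 in edgeR, just over the threshold) without the members to −1.103 ± 0.39 (adjusted p = 0.030) with them. In P3 replicate 3 its level rose from 50.8 to 71.9 CPM.

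Igfbp7, the vascular gene, shifted further. In P3 replicate 3 it was at 15.7 CPM without the members and 41.4 CPM with them, against at most 8.07 CPM in the other libraries, and its log2 fold change went from −2.81 ± 0.73 (adjusted p = 0.0064 in edgeR) to −3.78 ± 1.17 (adjusted p = 0.017). The astroglial markers and the cell cycle list kept the same number of calls, 9 of 12 and 8 of 8, with and without the members.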

How the data were processed

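The 6 libraries were processed by the authors with Cell Ranger against mm10 and deposited as 1 table of raw UMI counts (32285 genes by 16690 barcodes). The authors removed barcodes with at most 500 genes or at least 10% mitochondrial UMIs, clustered the remaining 14373 with Seurat and re-clustered the astroglia, and deposited cluster names and the pseudotime score per cell. How doublets were treated is not given in the sources used here, and no doublet caller was run here.

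Here, deposited UMI counts were pooled per group and scaled to CPM. Log2 ratios used 10 CPM added to both sides, with a gene called at an absolute value of 1 among genes with at least 50 CPM in the higher group. Library sums were tested with edgeR 4.0.16 (quasi-likelihood, TMM, filterByExpr, Benjamini-Hochberg, called at an adjusted p of 0.05 and 2-fold), with library as a block for shallow against deep cells and no block for the ages. Both fits were checked on simulated data. Share intervals were Clopper-Pearson and count intervals exact Poisson, both 95%. The libraries of an age were independent preparations, and p-values measure the spread between them.

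The members and gene lists were chosen with earlier results of these data known. Named genes were the listed genes, the 12 largest ratios each way for the members, and the 5 largest each way between the sub-clusters, against depth-matched cells and in the shallow against deep test. The leading genes of each sub-cluster and the hnRNP and Rbm families were added after the values had been seen. Each choice was varied 1 at a time, and 5 of these alternatives were chosen after seeing the data.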

Additional observations from a re-analysis of the deposited data

Results flagged for a closer look

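A signal of the sub-cluster 4 genes was found in data that the study's clustering did not use. In the 531 barcodes of P3 replicate 3 with at most 500 genes, which the filter removed, the 71 summed genes stood at 12982 CPM (95% Poisson interval 12622 to 13350). The corresponding barcodes of P3 replicates 1 and 2 held 1454 CPM (61 barcodes) and 1869 CPM (114 barcodes). Of the 80 sub-cluster 4 genes, 64 could be tested between the low-gene barcodes of P3 replicate 3 and those of replicate 1, and 62 were at least 2-fold higher (96.9%), against 58.4% of all genes tested. Against replicate 2 it was 60 of 64 (93.8%), against 43.9% of all genes. Nfia was at 1366 CPM in the low-gene barcodes of P3 replicate 3, and at 33.0 and 93.1 CPM in those of replicates 1 and 2. Astroglial markers differed as well, at 18468 CPM in P3 replicate 3 against 6409 and 8722 CPM, and haemoglobin genes the other way, at 50352 CPM against 129666 and 136931 CPM. Their part in the result was not tested.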

How the results depend on the processing

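The share difference kept its direction under the alternatives run, and its test could not pass the threshold in any of them. Leaving out 1 library at a time, the share difference was 0.435 to 13.3 percentage points, the lowest without P3 replicate 3. The depth ratio was 0.138 for sub-cluster 12 alone, against 0.148.

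The 107 higher and 0 lower genes of the members depended on the comparison cells and the minimum level. They became 219 and 1 (220 in all) at a minimum of 10 CPM, 349 and 205 (554) against depth-matched cells, 178 and 3 (181) without the progenitor sub-clusters 6 and 8, 266 and 50 (316) against sub-clusters 0 and 1 only, 254 and 16 (270) for sub-cluster 12 alone, 170 and 5 (175) in cells thinned to 500 UMIs, and, chosen after seeing the data, 165 and 12 (177) against the other astroglia of P3 replicates 1 and 2. Members with over 1000 genes had 5 lower genes, and the mean CPM of single cells gave 1. The cause was not tested. Of 312 log2 ratios of named genes under these settings, 199 moved by less than their counting error and 113 moved further. Of these, 3 changed sign: Hist1h3e (−0.89) was 0.73 without sub-clusters 6 and 8 and 1.18 against sub-clusters 0 and 1 only, and Pop7 (−0.58) was 0.26 against depth-matched cells.

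The shallow against deep calls, 18 in all with 5 higher and 13 lower, were 4 (3 and 1) with DESeq2, 58 (23 and 35) with the lowest 10% of each library as shallow and 2 (2 and 0) with no replicate block. They were 4 to 15 (3 to 4 and 1 to 11) when each P3 library was left out, with 4 without replicate 2. Unadjusted p was under 0.05 for 211 genes in DESeq2.

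The age calls, 4329 in all, were 3234 to 4250 (1673 to 1977 higher, 1561 to 2283 lower) when each library was left out. With the replicate block there were 4420, 4286 of them shared, but same-numbered libraries deviated together only weakly (correlations of 0.204, 0.104 and 0.043) and P3 replicate 3 correlated best with 3m replicate 2 (0.137), so the numbers were not taken as pairs. Directions that changed were of genes with no call. The log2 fold change of Rgs5 (−0.13) was 0.083 without sub-clusters 6 and 8, 0.026 in DESeq2, and −2.47 to 0.55 when each library was left out, above 0 without 3m replicate 2 (0.55) or 3 (0.17). Vtn (0.41) was −1.41 with the members, Pglyrp1 −1.91 to 0.30, above 0 without 3m replicate 1 (0.30) or 2 (0.25), and Sox9 (−0.25) −0.38 to 0.029, above 0 without P3 replicate 3.

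With 1 library holding 992 of 1019 members, no difference of the members from other cells has a replicate check, and age, preparation and library cannot be told apart for them. Cell clusters were the authors' and rest on the same genes. Sub-cluster 12 held 371760 UMIs, so that 3 UMIs are 8.07 CPM there.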
